A study of Homo sapiens with 8 samples.

Results

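Interferon-stimulated genes and the nucleic acid sensors that act upstream of them were followed as a set of 39 named genes, among them the IFIT, IFITM, OAS, MX and GBP families, the factors STAT2, IRF1, IRF7 and IRF9, and the sensors DDX58, IFIH1 and TLR3. The members were taken from a list of symbols, with no threshold on their values, but the list was chosen with earlier results of these data known. All 39 have a row in the count table of 26364 genes, and 36 of them passed the filter on low counts that left 14201 genes for testing. RSAD2 was too low to be tested, and CXCL10 and CXCL11 had 0 reads in all 8 libraries. A count of 0 still allows up to 3 reads, which is 0.160 to 0.189 CPM (the read count scaled to library size) depending on the library.

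The RNA came from LN229, a human glioblastoma cell line, as 2 stable clones under G418 selection. Clone D6 carried a plasmid for Survivin fused to GFP with a functional nuclear export sequence (NES), found mostly in the cytoplasm (Surv-GFP), and clone L2 carried the same fusion with a mutated NES, which keeps it in the nucleus (SurvNESmut-GFP). Both clones were sampled without treatment and after 48 h with temozolomide (TMZ) at 50 µM, a DNA-methylating drug given against glioblastoma. The study reports that Surv-GFP of clone D6 accumulated in the nucleus after TMZ at this dose. The clones under TMZ therefore cannot be read simply as cytoplasmic against nuclear Survivin. TMZ was dissolved in DMSO, and no source used here says whether the untreated cultures received DMSO. Each of the 4 groups holds 2 libraries, with the letters a and b. The study describes independent biological replicates that were each run as technical duplicates, and the labels do not say which of these the letters are, so the p-values measure only the spread between letters, which may be technical. That spread was small, with a common coefficient of variation of 4.09%. The study, also with edgeR's quasi-likelihood F test, reports few significant hits for TMZ and for the clones' difference, and raised its p threshold. Here 4271 genes rose and 4100 fell with TMZ in Surv-GFP at an adjusted p below 0.05. The reason for this gap was not tested. Each form of Survivin is represented by 1 clone, so the effect of the NES mutation and that of the clone cannot be told apart.

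Type I interferons bind IFNAR1 and IFNAR2, and the receptor's JAK kinases phosphorylate STAT proteins, among them STAT2, which join IRF9 and bind interferon-stimulated response elements in front of their target genes. The ligands are made when sensors detect foreign or misplaced nucleic acid: DDX58 (RIG-I) and IFIH1 (MDA5) bind RNA in the cytosol, TLR3 binds double-stranded RNA in endosomes, and cGAS detects DNA in the cytosol and signals through STING. Many targets block viruses, and some, such as USP18, dampen the pathway. DNA damage is known to induce some of these genes in tumor cells.

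Libraries held 15826923 to 18861603 reads counted on genes, and 8 of 8 libraries correlated best with their group mate. Of 7 markers of the glioma line, 6 had reads in every library, and GFAP was the one that did not pass the filter. Summed leukocyte and microglia markers, none of which passed the filter, came to 0.163 to 0.402 CPM in Surv-GFP and 1.20 to 1.36 CPM in SurvNESmut-GFP, with AIF1 at 0 in all libraries. Summed endothelial and fibroblast markers came to 59.6 to 65.0 CPM in untreated Surv-GFP, 37.6 CPM in both of its TMZ libraries, 50.5 to 57.9 CPM in untreated SurvNESmut-GFP and 40.5 to 49.3 CPM under TMZ. The part of these markers in the results below was not tested. In RNA of a whole culture, fewer cells with a transcript and less transcript per cell cannot be told apart.

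Under TMZ 21 members, among them IFIT1, IFIT2, IFIT3, GBP1, OAS1, PARP9 and DTX3L, fell in Surv-GFP, while in SurvNESmut-GFP as many members rose as fell. In Surv-GFP, these were 21 of the 36 tested members and 3 others rose, where 28.9% of all tested genes fell and 30.1% rose (edgeR quasi-likelihood F test, Benjamini-Hochberg adjusted p below 0.05 over all tested genes). The median log2 fold change was -0.48 over the members and 0.00 over all genes. In SurvNESmut-GFP, 7 members fell and 7 rose, where 19.1% of all genes fell and 18.6% rose, with a median of -0.06 over the members; scaled by library size alone, 4 fell and 7 rose. The TMZ effects themselves were compared in the same fit. The difference, SurvNESmut-GFP minus Surv-GFP, was higher for 14 members and lower for 4, where it was higher for 16.6% and lower for 20.2% of all genes, and its median was 0.45 over the members. IFITM2, IFITM3, OAS2, OASL, CMPK2, HERC6 and IFI44L were called as falling in Surv-GFP only, but their difference did not pass the test. Their fall was thus not shown to differ between the clones. Of the members called in these 3 comparisons, 13 of 20 that fell in Surv-GFP, 2 of 3 that rose there, 4 of 7 that fell and 3 of 7 that rose in SurvNESmut-GFP, 9 of 14 higher and 2 of 4 lower differences held in every setting tried, each library left out included. OAS2 is not in these tallies, since 1 of its clones had at most 1 read.

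**Figure D1:**
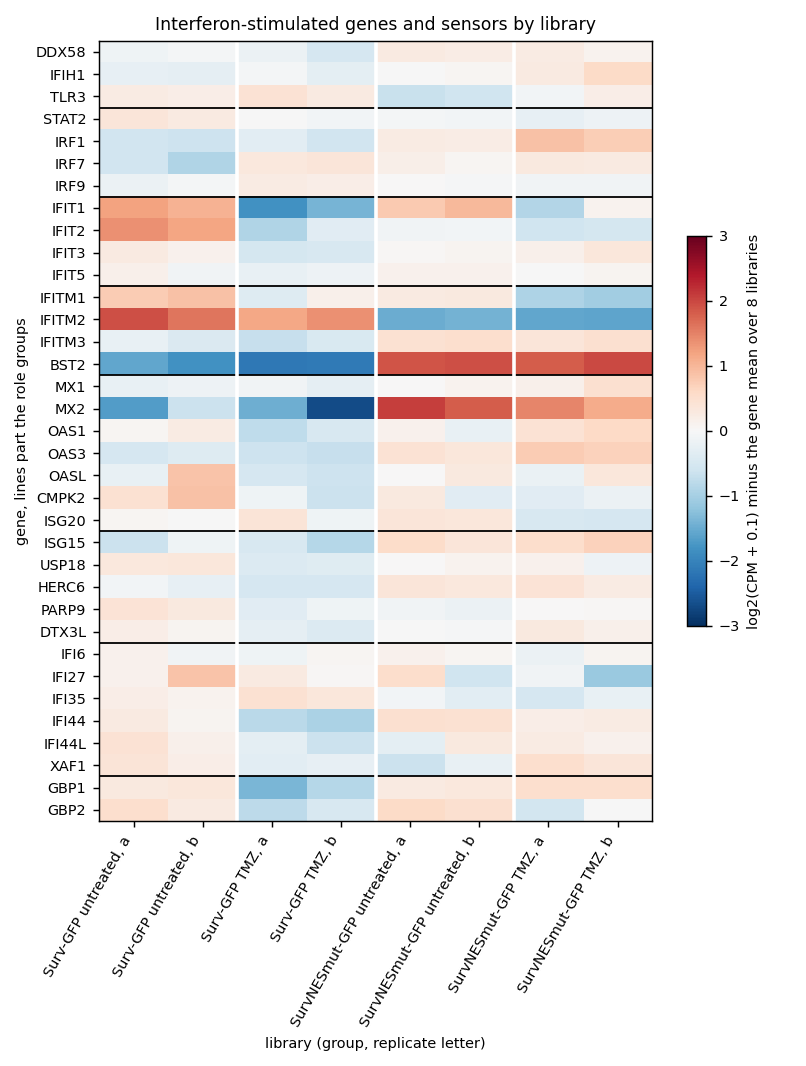
Colour map of 35 tested genes (rows, parted by role) in the 8 libraries (columns, 4 groups with letters a and b), as log2(CPM + 0.1) minus the mean of the gene over the libraries. IFIT1, IFIT2, GBP1 and IFI44 turn blue in both TMZ libraries of Surv-GFP, while IFITM2, BST2 and MX2 separate the clones with and without TMZ. OAS2 is left out because of its counts of 0.

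**Figure D2:**
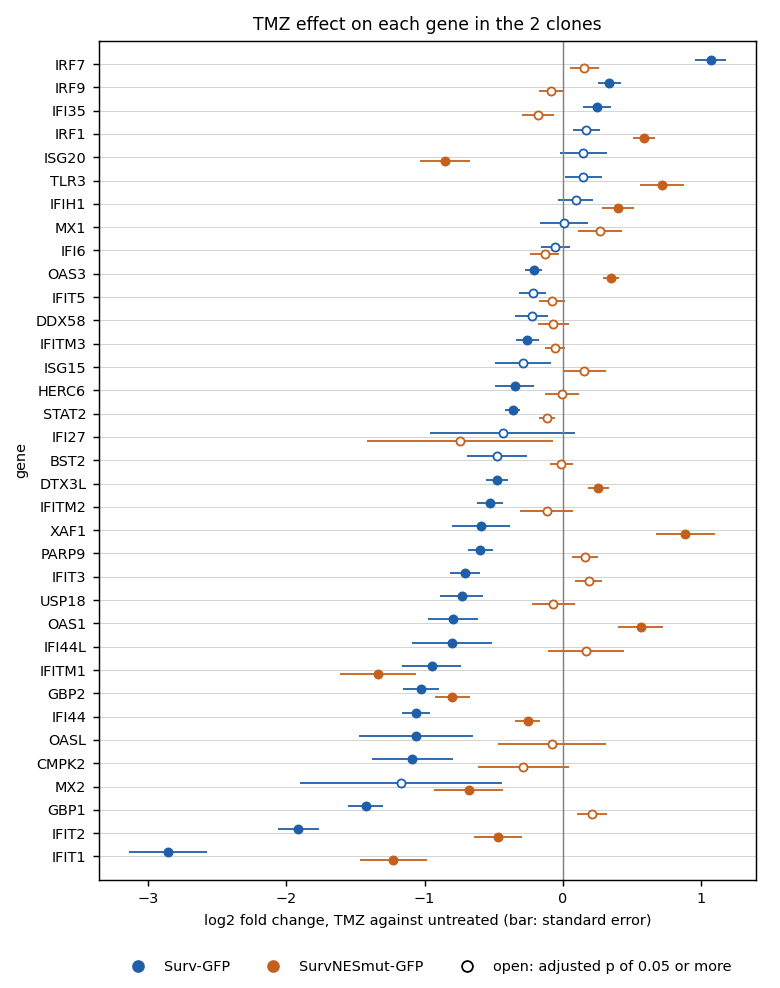
TMZ effect on each gene as the log2 fold change against untreated cells (horizontal axis, bars are standard errors), in Surv-GFP (blue) and SurvNESmut-GFP (orange), with filled points for an adjusted p below 0.05. IFIT1, at -2.85 in Surv-GFP and -1.23 in SurvNESmut-GFP, fell most in Surv-GFP, and IRF7, at 1.07, rose most there.

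Most members with a known promoter window hold the core of the response element described above. The list names interferon-stimulated genes, so a high share goes with that choice and says nothing about TMZ or the clones. The core of the interferon-stimulated response element, searched on both strands as GAAANNGAAA with N for any base, was found in 21 of 31 members (67.7%) that have a promoter in the RefSeq table (GRCh38.p14, windows of 300 bases around the start site), against 1195 of 27305 genes (4.38%) in that table. Matches may overlap each other, as in BST2 and ISG15. IRF7, IFIT2, IFITM2, MX2, OAS2, OASL, USP18 and GBP2 have no window there. The promoters below belong to the 4 members with a match whose TMZ effects differed between the clones with the smallest p, and they are shown so that the element can be read beside their values. Each is printed 5′ to 3′ on the gene's own strand, with the match in capitals; on GBP1 and IFIT3 the match lies on the other strand and so reads as its reverse complement.
GBP1, chr1:89065209-89065368, minus strand: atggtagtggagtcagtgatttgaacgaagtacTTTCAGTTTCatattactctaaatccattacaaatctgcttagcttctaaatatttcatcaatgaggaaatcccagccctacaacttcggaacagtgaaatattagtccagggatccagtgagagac
OAS3, chr12:112938314-112938473, plus strand: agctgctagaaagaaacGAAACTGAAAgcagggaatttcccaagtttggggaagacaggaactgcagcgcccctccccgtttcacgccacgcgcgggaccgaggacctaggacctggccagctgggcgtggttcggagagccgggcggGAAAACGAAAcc
DTX3L, chr3:122564178-122564341, plus strand: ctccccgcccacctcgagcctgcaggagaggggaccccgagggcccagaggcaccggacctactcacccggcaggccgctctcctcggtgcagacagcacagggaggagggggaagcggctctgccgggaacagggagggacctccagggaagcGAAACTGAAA
IFIT3, chr10:89327837-89327996, plus strand: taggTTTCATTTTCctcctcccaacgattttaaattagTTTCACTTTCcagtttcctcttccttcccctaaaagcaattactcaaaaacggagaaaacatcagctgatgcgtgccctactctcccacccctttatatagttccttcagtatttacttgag
OAS3 and IFIT3 each hold 2 matches in the stretch shown, and GBP1 and DTX3L hold 1. A match describes these letters and is not a measured binding site.

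**Figure D3:**
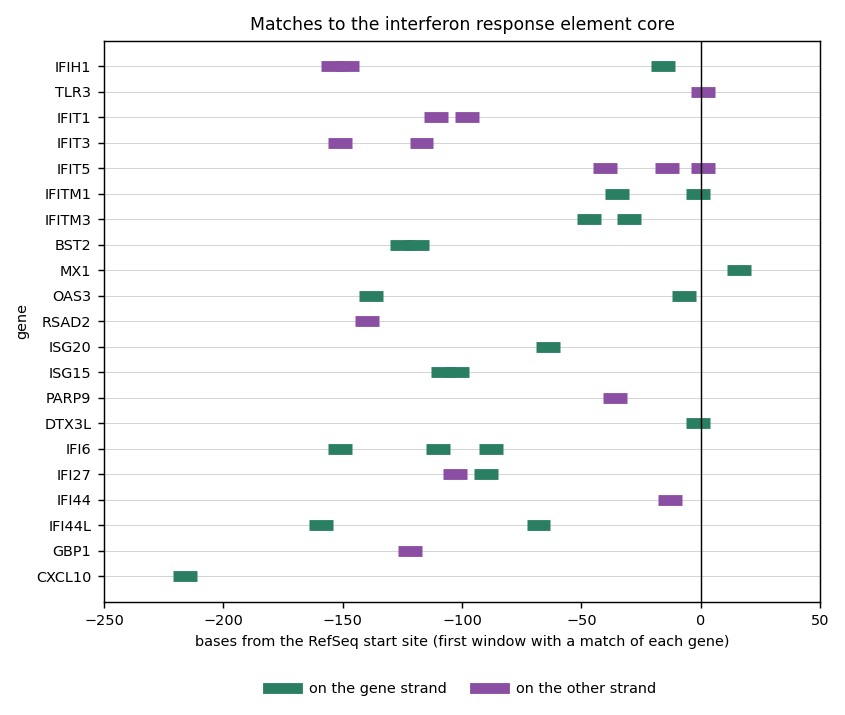
Positions of the response element core (bars, green on the strand of the gene and purple on the other strand) relative to the RefSeq start site of the 21 members that hold it (horizontal axis in bases, first window with a match of each gene). Most bars lie upstream of the start site, and the bar of MX1 lies just past it.

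The sensors were measured first. IFIH1 stood at 11.4 and 11.2 CPM in untreated Surv-GFP (letters a and b), 13.0 and 11.0 under TMZ, 13.4 and 14.1 in untreated SurvNESmut-GFP and 16.2 and 20.04 under TMZ. Both TMZ libraries of SurvNESmut-GFP lay above the other 6. IFIH1 rose with TMZ in SurvNESmut-GFP by 0.40 ± 0.11 (log2 fold change ± SE, adjusted p = 0.012), a call lost without either untreated library or TMZ replicate b of that clone (adjusted p up to 0.12), and the difference between the clones' TMZ effects was 0.31 ± 0.17 (adjusted p = 0.18). TLR3 stood at 7.64 and 7.40 CPM in untreated Surv-GFP, 8.82 and 7.81 under TMZ, 4.07 and 4.22 in untreated SurvNESmut-GFP and 6.14 and 7.50 under TMZ. The untreated SurvNESmut-GFP libraries were the lowest, and the TMZ libraries of this clone overlapped with untreated Surv-GFP. TLR3 rose with TMZ in SurvNESmut-GFP by 0.71 ± 0.16 (adjusted p = 0.0021) and was 0.15 ± 0.14 in Surv-GFP (adjusted p = 0.37). The difference of 0.57 ± 0.21 (adjusted p = 0.044) was lost when any library other than TMZ replicate a of either clone was left out (adjusted p up to 0.16). DDX58 stood at 11.8 and 12.4 CPM in untreated Surv-GFP, 11.5 and 9.13 under TMZ, 15.7 and 15.2 in untreated SurvNESmut-GFP and 15.4 and 13.99 under TMZ. All 4 SurvNESmut-GFP libraries lay above all 4 of Surv-GFP, and neither TMZ effect passed the test.

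The transcription factors moved in both directions. IRF7, which amplifies interferon production, stood at 9.48 and 7.51 CPM in untreated Surv-GFP, 17.5 and 18.1 under TMZ, 15.9 and 14.8 in untreated SurvNESmut-GFP and 17.2 and 17.02 under TMZ. The untreated Surv-GFP libraries lay apart, below the other 6. IRF7 rose with TMZ in Surv-GFP by 1.07 ± 0.11 (adjusted p = 5.5e-07) and was 0.15 ± 0.11 in SurvNESmut-GFP (adjusted p = 0.27), a difference of -0.91 ± 0.16 (adjusted p = 0.00024). IRF9, the DNA-binding partner of STAT2, stood at 17.1 and 18.4 CPM in untreated Surv-GFP and 22.9 and 21.9 under TMZ, against 19.2 and 18.8 in untreated SurvNESmut-GFP and 17.9 and 17.96 under TMZ. The TMZ libraries of Surv-GFP were the highest. IRF9 rose there by 0.33 ± 0.08 (adjusted p = 0.0028), and the difference of -0.42 ± 0.12 (adjusted p = 0.013) was lost without untreated Surv-GFP replicate a (adjusted p = 0.059).

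IRF1, induced by interferons and by NF-kappaB signaling, stood at 18.2 and 17.6 CPM in untreated Surv-GFP, 21.8 and 18.3 under TMZ, 32.5 and 31.7 in untreated SurvNESmut-GFP and 50.6 and 45.8 under TMZ. The 4 groups lay in that order without overlap. IRF1 rose with TMZ in SurvNESmut-GFP by 0.59 ± 0.08 (adjusted p = 2.5e-05) and was 0.17 ± 0.10 in Surv-GFP (adjusted p = 0.15). The difference of 0.42 ± 0.13 (adjusted p = 0.015) was lost without untreated Surv-GFP replicate a, Surv-GFP TMZ replicate b or untreated SurvNESmut-GFP replicate b (adjusted p up to 0.064). STAT2 stood at 98.3 and 91.8 CPM in untreated Surv-GFP, 75.8 and 71.9 under TMZ, 72.9 and 72.1 in untreated SurvNESmut-GFP and 64.8 and 68.9 under TMZ. Untreated Surv-GFP was the highest, and its TMZ libraries overlapped with untreated SurvNESmut-GFP. STAT2 fell in Surv-GFP by 0.36 on the log2 scale (SE 0.06, adjusted p = 3.1e-05) and was -0.12 ± 0.06 in SurvNESmut-GFP (adjusted p = 0.12), and the difference of 0.25 ± 0.08 (adjusted p = 0.024) was lost without untreated Surv-GFP replicate a, Surv-GFP TMZ replicate b, either untreated SurvNESmut-GFP library or SurvNESmut-GFP TMZ replicate b (adjusted p up to 0.13).

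The IFIT proteins bind viral RNA and block its translation, and 3 of the 4 members of the family fell with TMZ in Surv-GFP. IFIT1 stood at 6.83 and 6.07 CPM in untreated Surv-GFP, 0.749 and 1.03 under TMZ, 5.04 and 5.78 in untreated SurvNESmut-GFP and 1.52 and 3.15 under TMZ. Both TMZ groups lay below both untreated groups, with Surv-GFP the lower of the TMZ groups. IFIT1 fell by 2.85 on the log2 scale in Surv-GFP (SE 0.28, adjusted p = 2.5e-07) and by 1.23 in SurvNESmut-GFP (SE 0.24, adjusted p = 0.00086). The difference of 1.63 ± 0.41 (adjusted p = 0.0050) became 1.03 and was lost without SurvNESmut-GFP TMZ replicate b (adjusted p = 0.055). IFIT2 stood at 19.3 and 16.8 CPM in untreated Surv-GFP and 3.90 and 5.74 under TMZ, against 6.83 and 6.89 in untreated SurvNESmut-GFP and 4.79 and 5.11 under TMZ. Untreated Surv-GFP lay far above the other groups, and the TMZ libraries of the clones overlapped. IFIT2 fell by 1.91 in Surv-GFP (SE 0.15, adjusted p = 1.0e-08) and by 0.47 in SurvNESmut-GFP (SE 0.17, adjusted p = 0.041), the last call lost without either untreated library or TMZ replicate a of that clone (adjusted p up to 0.14), and the difference was 1.44 ± 0.23 (adjusted p = 0.00015).

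IFIT3 stood at 18.2 and 16.4 CPM in untreated Surv-GFP, 10.4 and 10.8 under TMZ, 15.5 and 15.8 in untreated SurvNESmut-GFP and 16.6 and 19.04 under TMZ. Its 2 TMZ libraries of Surv-GFP lay below all others. IFIT3 fell in Surv-GFP by 0.71 (SE 0.11, adjusted p = 2.4e-05) and was 0.19 ± 0.10 in SurvNESmut-GFP (adjusted p = 0.16), a difference of 0.89 ± 0.15 (adjusted p = 0.00016). IFIT5 lay between 16.7 and 21.7 CPM in all libraries, and none of its 5 comparisons passed the test. An exon of IFIT2, and one of IRF9, overlaps another gene on the same strand in GENCODE v29, and no source used here names the annotation behind the counts.

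GBP1 and GBP2 are guanylate-binding GTPases that respond most strongly to interferon gamma and attack vacuoles holding pathogens. GBP1 stood at 18.2 and 18.8 CPM in untreated Surv-GFP, 5.67 and 8.15 under TMZ, 17.9 and 18.5 in untreated SurvNESmut-GFP and 21.2 and 21.0 under TMZ. The untreated groups overlapped, the TMZ libraries of Surv-GFP were the lowest and those of SurvNESmut-GFP the highest. GBP1 fell with TMZ in Surv-GFP by 1.43 (SE 0.13, adjusted p = 7.0e-08) and was 0.21 ± 0.11 in SurvNESmut-GFP (adjusted p = 0.14), and its difference of 1.64 ± 0.17 (adjusted p = 1.5e-06) had the smallest p of the members. GBP2 stood at 56.4 and 47.7 CPM in untreated Surv-GFP and 22.9 and 28.4 under TMZ, and at 58.8 and 55.6 in untreated SurvNESmut-GFP and 26.9 and 39.0 under TMZ. All 4 TMZ libraries lay below all 4 untreated ones. GBP2 fell by 1.03 in Surv-GFP (SE 0.13, adjusted p = 4.0e-06) and by 0.80 in SurvNESmut-GFP (SE 0.13, adjusted p = 0.00010), and the difference of 0.23 ± 0.18 did not pass the test (adjusted p = 0.36, 95% interval -0.13 to 0.58).

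**Figure D4:**
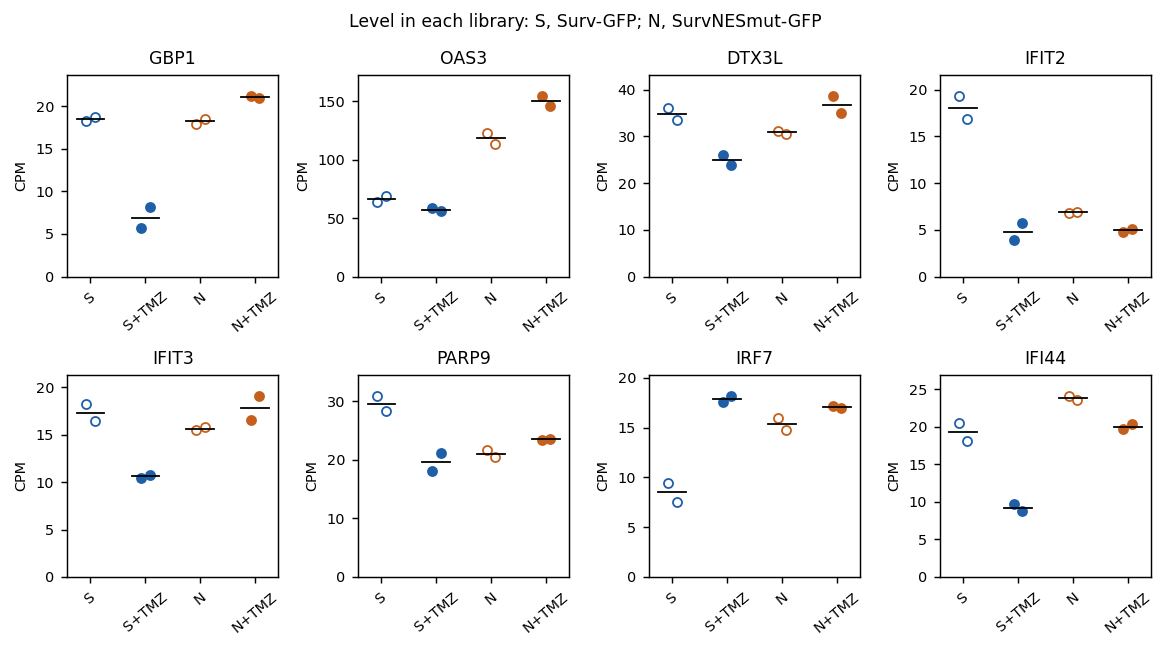
Level in CPM (vertical axes, from 0) in each library of the 8 genes with the smallest p for the difference between the TMZ effects, OAS2 left out; S is Surv-GFP and N is SurvNESmut-GFP, open points are untreated and filled points TMZ, and lines mark the mean of 2 libraries. GBP1 falls from 18.2 and 18.8 to 5.67 and 8.15 CPM in S and stays between 17.9 and 21.2 CPM in N.

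The OAS enzymes make oligoadenylates that switch on RNase L, and OAS1 and OAS3 moved in opposite directions in the clones. OAS3 stood at 63.5 and 68.8 CPM in untreated Surv-GFP, 58.3 and 55.8 under TMZ, 122 and 114 in untreated SurvNESmut-GFP and 154 and 146 under TMZ. The 4 groups did not overlap. OAS3 rose in SurvNESmut-GFP by 0.35 ± 0.06 (adjusted p = 0.00011), and the difference was 0.56 ± 0.08 (adjusted p = 6.8e-05). It fell in Surv-GFP by 0.21 (SE 0.06, adjusted p = 0.0075), a call lost without untreated replicate b (adjusted p = 0.11). OAS1 stood at 5.58 and 6.35 CPM in untreated Surv-GFP and 3.10 and 3.79 under TMZ, against 5.86 and 4.56 in untreated SurvNESmut-GFP and 7.25 and 8.19 under TMZ. The untreated groups overlapped, and the TMZ groups lay on opposite sides of them. OAS1 fell in Surv-GFP by 0.79 (SE 0.18, adjusted p = 0.0013) and rose in SurvNESmut-GFP by 0.56 ± 0.16 (adjusted p = 0.012), the rise lost without untreated replicate b (adjusted p = 0.14), and the difference was 1.36 ± 0.24 (adjusted p = 0.00037). OAS1 and the members IFITM3, IRF1, ISG15, MX1 and XAF1 overlap a gene on the opposite strand in GENCODE v29, and no source used here says whether reads were counted by strand.

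OAS2 was close to absent in one clone. It had 2.71 and 2.59 CPM in untreated Surv-GFP and 2.03 and 1.21 under TMZ, and in SurvNESmut-GFP 0 reads in both untreated libraries and 1 read in the TMZ libraries together. Surv-GFP lay above SurvNESmut-GFP in all libraries. Without TMZ, OAS2 was at least 32.2-fold higher in Surv-GFP (97 reads against 0, taken as 3 reads over the group), and under TMZ 59 reads stood against 1, a ratio of 53.9 with an exact 95% interval for counting error of 9.30 to 2163. The TMZ effect in Surv-GFP was -0.70 ± 0.28 (adjusted p = 0.041) and was lost when either untreated library of Surv-GFP, its TMZ replicate b or either untreated library of SurvNESmut-GFP was left out (adjusted p up to 0.29).

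The other antiviral enzymes were low. ISG20, an exonuclease that degrades RNA, stood at 5.53 and 5.24 CPM in untreated Surv-GFP, 7.01 and 4.88 under TMZ, 6.89 and 6.72 in untreated SurvNESmut-GFP and 3.80 and 3.72 under TMZ. Both TMZ libraries of SurvNESmut-GFP lay below all others. ISG20 fell there by 0.85 (SE 0.18, adjusted p = 0.0014) and was 0.15 ± 0.17 in Surv-GFP (adjusted p = 0.48), a difference of -1.003 ± 0.25 (adjusted p = 0.0047), opposite in sign to most members. CMPK2, a mitochondrial nucleotide kinase, went from 2.22 and 2.98 CPM to 1.44 and 0.976 with TMZ in Surv-GFP (log2 fold change -1.09 ± 0.29, adjusted p = 0.0043), a call lost without untreated replicate b (adjusted p = 0.061). In SurvNESmut-GFP, CMPK2 stood at 1.95 and 1.22 CPM untreated and 1.23 and 1.39 under TMZ. Its difference of 0.80 ± 0.44 did not pass the test (adjusted p = 0.17). OASL went from 0.867 and 1.93 to 0.695 and 0.631 CPM in Surv-GFP, and its log2 fold change of -1.06 ± 0.41 (adjusted p = 0.035) was lost without untreated Surv-GFP replicate b, either TMZ library of Surv-GFP or either untreated SurvNESmut-GFP library (adjusted p up to 0.54). In SurvNESmut-GFP, OASL stood at 1.03 and 1.28 CPM untreated and 0.877 and 1.32 under TMZ. Its difference of 0.99 ± 0.57 did not pass the test (adjusted p = 0.20). MX1, a GTPase that blocks influenza virus, lay between 4.08 and 6.93 CPM with neither TMZ effect past the test. RSAD2, which makes a chain-terminating nucleotide, stayed at or below 0.488 CPM.

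ISG15 is a ubiquitin-like protein that is joined to other proteins, USP18 removes it and also blocks the interferon receptor, and HERC6 belongs to the HERC family of ligases. ISG15 stood at 3.90 and 5.57 CPM in untreated Surv-GFP, 4.38 and 3.33 under TMZ, 9.001 and 7.89 in untreated SurvNESmut-GFP and 8.83 and 10.0 under TMZ. TMZ groups overlapped with untreated groups in both clones, and neither TMZ effect passed the test. USP18 stood at 6.45 and 6.62 CPM in untreated Surv-GFP and 3.85 and 4.02 under TMZ, against 5.26 and 5.61 in untreated SurvNESmut-GFP and 5.67 and 4.66 under TMZ. Its Surv-GFP TMZ libraries were the lowest. USP18 fell in Surv-GFP by 0.73 (SE 0.16, adjusted p = 0.00074), and the difference of 0.66 ± 0.22 (adjusted p = 0.027) was lost without either untreated library of either clone or TMZ replicate a of either clone (adjusted p up to 0.13). HERC6 went from 7.32 and 6.51 to 5.40 and 5.45 CPM with TMZ in Surv-GFP, and its log2 fold change of -0.35 ± 0.14 (adjusted p = 0.042) was lost when any Surv-GFP library or any untreated SurvNESmut-GFP library was left out (adjusted p up to 0.24). In SurvNESmut-GFP, HERC6 stood at 9.92 and 9.67 CPM untreated and 10.3 and 9.14 under TMZ. Its difference of 0.34 ± 0.19 did not pass the test (adjusted p = 0.16).

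PARP9 and DTX3L form a complex that modifies proteins at sites of DNA damage and in the interferon response, and both fell with TMZ in Surv-GFP. PARP9 stood at 30.8 and 28.3 CPM in untreated Surv-GFP, 18.1 and 21.1 under TMZ, 21.6 and 20.4 in untreated SurvNESmut-GFP and 23.4 and 23.5 under TMZ. Untreated Surv-GFP was the highest, and the order of the clones was turned under TMZ. PARP9 fell in Surv-GFP by 0.60 (SE 0.09, adjusted p = 2.1e-05) and was 0.16 ± 0.09 in SurvNESmut-GFP (adjusted p = 0.18), a difference of 0.76 ± 0.13 (adjusted p = 0.00020). DTX3L stood at 36.1 and 33.4 CPM in untreated Surv-GFP and 26.0 and 23.8 under TMZ, against 31.1 and 30.5 in untreated SurvNESmut-GFP and 38.6 and 35.0 under TMZ. The untreated groups of the clones did not overlap, and the Surv-GFP TMZ libraries were the lowest. DTX3L fell in Surv-GFP by 0.48 (SE 0.08, adjusted p = 6.8e-05) and rose in SurvNESmut-GFP by 0.26 ± 0.08 (adjusted p = 0.015), the rise lost without either untreated library or TMZ replicate a of that clone (adjusted p up to 0.13), and the difference was 0.74 ± 0.11 (adjusted p = 7.6e-05). Exons of PARP9 and DTX3L overlap on opposite strands in GENCODE v29, so the values of the pair may share reads.

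IFI44 stood at 20.5 and 18.05 CPM in untreated Surv-GFP, 9.68 and 8.78 under TMZ, 24.0 and 23.6 in untreated SurvNESmut-GFP and 19.6 and 20.3 under TMZ. The Surv-GFP TMZ libraries lay apart at less than 10 CPM. IFI44 fell in Surv-GFP by 1.06 (SE 0.10, adjusted p = 1.9e-07) and in SurvNESmut-GFP by 0.25 (SE 0.09, adjusted p = 0.035), the smaller fall lost without either untreated library or TMZ replicate a of that clone (adjusted p up to 0.14), and the difference was 0.81 ± 0.14 (adjusted p = 0.00024). XAF1, which opposes the apoptosis inhibitor XIAP, stood at 3.79 and 3.31 CPM in untreated Surv-GFP, 2.30 and 2.41 under TMZ, 1.79 and 2.44 in untreated SurvNESmut-GFP and 4.09 and 3.72 under TMZ. The clone that was lower without TMZ was the higher one with it. The difference was 1.48 ± 0.30 (adjusted p = 0.0010), with a rise of 0.89 ± 0.21 in SurvNESmut-GFP (adjusted p = 0.0037, 0.060 without untreated replicate a) and a fall of 0.59 in Surv-GFP (SE 0.21, adjusted p = 0.022, up to 0.14 without untreated replicate a or either TMZ library). IFI35 went from 19.6 and 18.4 to 23.5 and 21.6 CPM in Surv-GFP (log2 fold change 0.25 ± 0.10, adjusted p = 0.0497), a call lost when any Surv-GFP library was left out (adjusted p up to 0.25). IFI35 stood at 16.2 and 13.6 CPM in untreated SurvNESmut-GFP and 11.9 and 14.4 under TMZ, and the difference of -0.43 ± 0.16 (adjusted p = 0.042) was lost without any Surv-GFP library or replicate a of either SurvNESmut-GFP group (adjusted p up to 0.22).

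IFI44L, close in sequence to IFI44, went from 2.28 and 1.88 to 1.34 and 1.03 CPM in Surv-GFP (log2 fold change -0.80 ± 0.29, adjusted p = 0.025), a call lost without untreated replicate a or TMZ replicate b (adjusted p up to 0.15). In SurvNESmut-GFP, IFI44L stood at 1.36 and 2.06 CPM untreated and 1.99 and 1.83 under TMZ. Its difference of 0.97 ± 0.40 did not pass the test (adjusted p = 0.069). IFI6, a mitochondrial protein, lay between 19.7 and 24.1 CPM in all 8 libraries, and IFI27 between 0.126 and 0.773 CPM. No group of either gene lay apart from all the others, and no comparison of either passed the test. The chemokines CXCL10 and CXCL11, which attract T cells, had no reads.

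IFITM proteins sit in membranes and block virus entry, and BST2 (tetherin) holds budding virus at the cell surface. IFITM1 stood at 3.79 and 4.14 CPM in untreated Surv-GFP, 1.66 and 2.47 under TMZ, 2.66 and 2.72 in untreated SurvNESmut-GFP and 1.11 and 1.01 under TMZ. TMZ libraries lay below the untreated ones in each clone. IFITM1 fell by 0.95 in Surv-GFP (SE 0.22, adjusted p = 0.0012) and by 1.34 in SurvNESmut-GFP (SE 0.27, adjusted p = 0.0011), and the difference of -0.39 ± 0.36 did not pass the test (adjusted p = 0.43). IFITM2 stood at 62.3 and 49.7 CPM in untreated Surv-GFP, 36.0 and 41.7 under TMZ, 5.64 and 5.95 in untreated SurvNESmut-GFP and 5.38 and 5.29 under TMZ. The clones lay far apart with and without TMZ. IFITM2 fell in Surv-GFP by 0.53 (SE 0.09, adjusted p = 0.00015). IFITM3 stood at 65.5 and 56.5 CPM in untreated Surv-GFP, 47.2 and 55.1 under TMZ, 104 and 108 in untreated SurvNESmut-GFP and 97.3 and 107 under TMZ, and its fall in Surv-GFP of 0.26 (SE 0.08, adjusted p = 0.012) was lost without replicate a of either Surv-GFP group (adjusted p up to 0.22). The differences of IFITM2 (0.41 ± 0.21, adjusted p = 0.15) and IFITM3 (0.20 ± 0.11, adjusted p = 0.17) did not pass the test. The 3 IFITM genes are near-identical in parts, and no source used here says how reads that match more than 1 of them were counted.

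The clones were then compared at each exposure, SurvNESmut-GFP against Surv-GFP. Without TMZ, 10 of the 36 members were higher and 10 lower, where 34.7% of all tested genes were higher and 29.4% lower, with a median of -0.08 over the members and 0.03 over all genes. Under TMZ, 20 were higher and 7 lower, where 34.5% of all genes were higher and 34.7% lower, with a median of 0.51. These 2 comparisons and the 2 TMZ effects share libraries, so they are not independent of each other. DDX58, IRF1, IFITM3, BST2, MX2, OAS3, ISG15, HERC6 and IFI44 were higher in SurvNESmut-GFP at both exposures, and STAT2, IFITM1, IFITM2, OAS2 and IFI35 were lower at both. PARP9 and XAF1 were lower in untreated SurvNESmut-GFP and higher under TMZ. A further 9 members (IFIH1, IFIT1, IFIT3, MX1, OAS1, USP18, DTX3L, GBP1 and GBP2) were called higher under TMZ and not without it. For IFIH1, MX1 and GBP2 the difference of TMZ effects did not pass the test (adjusted p = 0.18, 0.42 and 0.36). Their clone gap was thus not shown to change with TMZ. The shares of all tested genes with these joint patterns were not computed.

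**Figure D5:**
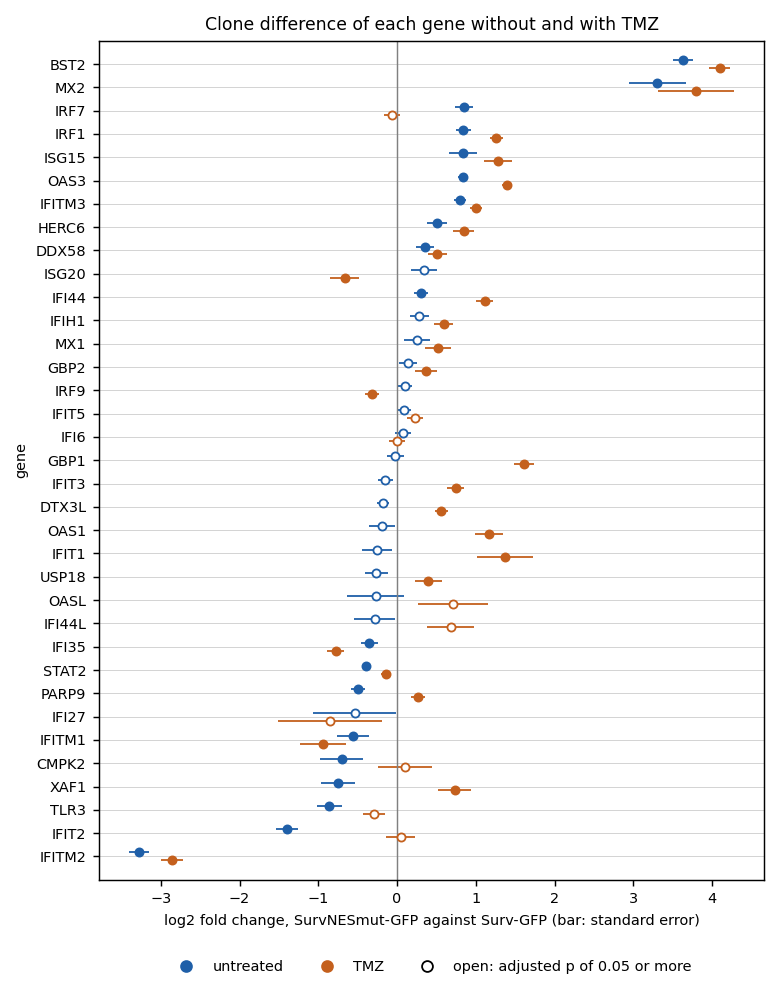
Clone difference of each gene as the log2 fold change of SurvNESmut-GFP against Surv-GFP (horizontal axis, bars are standard errors), untreated (blue) and under TMZ (orange), with filled points for an adjusted p below 0.05. BST2 and MX2 lie above 3 and IFITM2 below -2.8 at both exposures, and GBP1 moves from -0.02 to 1.62; OAS2 is left out because of its counts of 0.

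The widest gaps between the clones were in BST2, MX2, IFITM2 and OAS2. BST2 stood at 2.87 and 2.37 CPM in untreated Surv-GFP and 1.87 and 1.89 under TMZ, against 31.9 and 33.3 in untreated SurvNESmut-GFP and 30.3 and 34.4 under TMZ. No library of one clone came near the other. BST2 was higher in SurvNESmut-GFP by 3.63 ± 0.13 without TMZ (adjusted p = 3.9e-13) and by 4.10 ± 0.14 with it (adjusted p = 2.8e-13). MX2, a GTPase that acts on HIV, stood at 0.217, 0.552, 0.267 and 0.0574 CPM in the 4 Surv-GFP libraries (untreated a and b, TMZ a and b), and at 4.18 and 3.5004 CPM in untreated SurvNESmut-GFP and 2.69 and 2.08 under TMZ. Every SurvNESmut-GFP library was higher. MX2 differed by 3.30 ± 0.36 (adjusted p = 5.6e-07) and 3.79 ± 0.48 (adjusted p = 2.9e-06), and its fall of 0.68 with TMZ in SurvNESmut-GFP (SE 0.25, adjusted p = 0.041) was lost without either untreated library or TMZ replicate b of that clone (adjusted p up to 0.23). IFITM2 was lower in SurvNESmut-GFP, with a log2 fold change of -3.27 ± 0.13 untreated (adjusted p = 1.6e-12) and -2.86 ± 0.14 under TMZ (adjusted p = 2.2e-11), while its relative IFITM3 was higher, at 0.80 ± 0.08 (adjusted p = 1.1e-07) and 0.999 ± 0.08 (adjusted p = 8.8e-09). Leukocyte and microglia markers, summed at most at 1.36 CPM, were also higher in SurvNESmut-GFP.

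Gaps of about 1 log2 unit were found for IRF1, OAS3 and ISG15. IRF1 was higher in SurvNESmut-GFP by 0.84 ± 0.09 untreated (adjusted p = 4.6e-07) and 1.26 ± 0.09 under TMZ (adjusted p = 1.4e-09). OAS3 was higher by 0.84 ± 0.06 (adjusted p = 2.4e-09) and 1.39 ± 0.06 (adjusted p = 4.9e-12), and ISG15 by 0.84 ± 0.17 (adjusted p = 0.00051) and 1.28 ± 0.18 (adjusted p = 9.3e-06). IRF7 was higher by 0.85 ± 0.12 untreated (adjusted p = 7.1e-06) and was -0.06 ± 0.10 under TMZ (adjusted p = 0.62). IFIT2 was lower untreated (log2 fold change -1.40 ± 0.14, adjusted p = 1.5e-07) and was 0.04 ± 0.19 under TMZ (adjusted p = 0.84), and TLR3 was lower untreated (-0.86 ± 0.15, adjusted p = 0.00012) and -0.29 ± 0.14 under TMZ (adjusted p = 0.075). GBP1, at -0.02 ± 0.11 untreated (adjusted p = 0.88), was higher under TMZ by 1.62 ± 0.13 (adjusted p = 8.8e-09). The change of each clone difference with TMZ is the same quantity as the difference of TMZ effects given above.

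Of the other members called between the clones, HERC6 at both exposures and IFI44, DDX58, IFIH1, IFIT3, OAS1, DTX3L, XAF1, IFI35 and IRF9 under TMZ held in every setting, as did STAT2 and PARP9 without TMZ. Calls that turned on 1 library follow with their log2 fold change ± SE and adjusted p, and with the adjusted p without the library in the second bracket. Without TMZ, DDX58 (0.35 ± 0.11, adjusted p = 0.012) was lost without replicate a of either clone (up to 0.073), XAF1 (-0.75 ± 0.21, 0.0058) without the same libraries (up to 0.083), IFI44 (0.30 ± 0.09, 0.0069) without Surv-GFP replicate b (0.099), and CMPK2 (-0.71 ± 0.28, 0.034) without replicate b of either clone (up to 0.29). IFITM1 (-0.56 ± 0.20, 0.024) was lost without any of the 4 untreated libraries (up to 0.12), and IFI35 (-0.35 ± 0.11, 0.0097) without Surv-GFP replicate a or SurvNESmut-GFP replicate b (up to 0.14). Under TMZ, IFIT1 (1.37 ± 0.36, 0.0027) was lost without SurvNESmut-GFP replicate b (0.096), IFITM1 (-0.95 ± 0.29, 0.0085) without Surv-GFP replicate b (0.12), and ISG20 (-0.67 ± 0.19, 0.0044) without Surv-GFP replicate a (0.091). MX1 (0.52 ± 0.16, 0.010) was lost without TMZ replicate b of either clone (up to 0.16), GBP2 (0.36 ± 0.14, 0.029) without Surv-GFP TMZ replicate a or SurvNESmut-GFP TMZ replicate b (up to 0.76), PARP9 (0.26 ± 0.09, 0.018) without Surv-GFP TMZ replicate a or either SurvNESmut-GFP TMZ library (up to 0.34), and STAT2 (-0.14 ± 0.06, 0.036) without TMZ replicate a of either clone (up to 0.11). USP18 (0.40 ± 0.17, 0.043) was lost without any library other than SurvNESmut-GFP TMZ replicate b (up to 0.40).

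The genes around these members in the pathway were taken from 6 lists of 116 genes, of which 87 were tested. With TMZ, 21 of them rose and 26 fell in Surv-GFP, and 29 rose and 12 fell in SurvNESmut-GFP. Over all tested genes, 30.1% rose and 28.9% fell in Surv-GFP, and 18.6% rose and 19.1% fell in SurvNESmut-GFP. The difference between the TMZ effects was higher for 23 and lower for 10, against 16.6% and 20.2% of all genes. Against Surv-GFP, 41 were higher and 25 lower in untreated SurvNESmut-GFP, and 53 higher and 16 lower under TMZ, where 34.7% and 29.4% of all genes were higher and lower untreated and 34.5% and 34.7% under TMZ. Of 40 tested further interferon-stimulated genes, 10 rose and 13 fell in Surv-GFP (30.1% and 28.9% of all genes), and 20 rose and 2 fell in SurvNESmut-GFP (18.6% and 19.1% of all genes). TRIM22, an antiviral ubiquitin ligase that p53 also induces, went from 19.5 and 18.6 to 79.8 and 77.4 CPM in Surv-GFP and from 31.4 and 36.1 to 104 and 105 CPM in SurvNESmut-GFP. It rose in both clones, by 2.05 ± 0.07 (adjusted p = 6.3e-13) and 1.62 ± 0.06 (adjusted p = 1.6e-11). UBA7, the enzyme that activates ISG15, stood at 6.503 and 6.57 CPM in untreated Surv-GFP, 3.85 and 3.79 under TMZ, 19.6 and 16.7 in untreated SurvNESmut-GFP and 20.6 and 21.2 under TMZ, and was higher in SurvNESmut-GFP under TMZ by 2.45 ± 0.13 (adjusted p = 5.2e-11).

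Interferons themselves were barely seen: of 21 ligand genes only IFNE passed the filter, with 14 to 29 reads per library and no TMZ effect past the test. Of 13 tested genes of cytosolic DNA sensing, 2 rose and 4 fell with TMZ in each clone, where 30.1% of all genes rose and 28.9% fell in Surv-GFP and 18.6% and 19.1% in SurvNESmut-GFP. MB21D1 (cGAS), also on this list, had 6 reads over all 8 libraries and was too low to be tested. TMEM173 (STING) went from 20.8 and 18.7 to 12.5 and 11.8 CPM in Surv-GFP and from 29.2 and 28.3 to 16.95 and 20.2 CPM in SurvNESmut-GFP, a fall of 0.70 (SE 0.10, adjusted p = 2.5e-05) and of 0.64 (SE 0.09, adjusted p = 5.8e-05). IFI16, a DNA sensor, went from 227 and 228 to 367 and 363 CPM in Surv-GFP, stood at 137 and 140 CPM in untreated SurvNESmut-GFP and at 106 and 131 CPM under TMZ. Its groups did not overlap between the clones, and the TMZ effects differed by -0.91 ± 0.10 (adjusted p = 2.6e-06). AIM2, which senses DNA in inflammasomes, stood at 9.10 to 13.2 CPM in Surv-GFP and 0.468 to 1.20 CPM in SurvNESmut-GFP, a clone difference of -3.12 ± 0.24 untreated (adjusted p = 7.0e-09).

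Among 10 tested RNA sensing adaptors and effectors, 3 rose and 3 fell with TMZ in each clone, which in Surv-GFP is near the 30.1% and 28.9% of all genes (18.6% and 19.1% in SurvNESmut-GFP). TRIM25, a ubiquitin ligase that acts on DDX58, rose by 1.25 ± 0.07 in Surv-GFP (adjusted p = 2.9e-10) and by 0.57 ± 0.07 in SurvNESmut-GFP (adjusted p = 1.3e-05). TLR7, an endosomal RNA sensor, had 1 read in the 4 Surv-GFP libraries together, 72 and 50 reads in untreated SurvNESmut-GFP and 12 and 8 under TMZ. It fell in SurvNESmut-GFP by 2.45 (SE 0.33, adjusted p = 3.3e-05). Of 12 tested negative regulators, 4 rose and 4 fell in Surv-GFP and 2 rose and 2 fell in SurvNESmut-GFP, beside the same shares of all genes. SOCS3, which inhibits JAK kinases, went from 56.0 and 58.4 to 10.1 and 9.18 CPM in Surv-GFP and from 38.6 and 30.8 to 16.2 and 21.2 CPM in SurvNESmut-GFP. Both TMZ groups lay below both untreated groups, and the log2 fold changes of -2.57 ± 0.12 (adjusted p = 2.6e-11) and -0.90 ± 0.12 (adjusted p = 1.5e-05) differed by 1.67 ± 0.17 (adjusted p = 1.8e-06). Of 11 tested receptors, JAK kinases and STATs, 2 rose and 2 fell in Surv-GFP and 2 rose and 1 fell in SurvNESmut-GFP, beside the same shares. JAK1 was higher in SurvNESmut-GFP by 0.62 ± 0.05 untreated (adjusted p = 2.3e-08) and 0.54 ± 0.05 under TMZ (adjusted p = 1.2e-07).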

How the data were processed

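Total RNA of the 2 LN229 clones, with or without TMZ (50 µM, 48 h), was measured by Illumina sequencing. Per the labels, the 8 libraries fall into 4 groups of 2. As deposited by the authors, the table gives raw counts of reads for each gene symbol. Its 2 rows that name no gene (11.2 to 14.3% and 1.19 to 1.28% of a library's reads) were left out here. The submitters' processing notes name STAR 2.5.0b, Cufflinks 2.2.1 and edgeR with no role. Genome build, annotation and counting program: not given in the sources used here. Also deposited were 5 comparison tables of the authors (log2 fold changes, average log2 CPM, F, p and FDR), not used.

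The analysis ran in R 4.3.3 with edgeR 4.0.16, using TMM factors, filterByExpr with the groups, 1 model of 4 group means over all 8 libraries and the quasi-likelihood F test of earlier edgeR versions. It gave 5 contrasts, with Benjamini-Hochberg adjustment over 14201 genes at 0.05. CPM values use TMM-scaled library sizes. Standard errors were derived from the F statistic. Intervals and limits for counts cover counting error only, since reads carry no molecular identifiers here. The scripts were tested on simulated data. Alternatives were TMM against DESeq2's size factors (RLE) or library size alone, other filters, edgeR's newer method, DESeq2 1.42.0, a replicate block, a fit to the compared groups alone, and leaving out every library in turn. Promoters came from RefSeq (GRCh38.p14), where DDX58 is listed as RIGI.

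All members were named. Of each pathway list, up to 2 genes with the smallest p in a contrast could be named. The members and lists were chosen with earlier results of these data known.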

Additional observations from a re-analysis of the deposited data

Results flagged for a closer look

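The TMZ effects of 28 genes differed between the clones by a test of the difference itself. It was the edgeR quasi-likelihood F test in 1 fit over all 8 libraries, with a Benjamini-Hochberg adjusted p below 0.05. The genes looked at were the tested members and at most 2 genes of each pathway list, those with the smallest p for this difference. Over all tested genes, 16.6% had a higher and 20.2% a lower difference. The pathway genes were picked by this p, so these shares are no measure for them. The 28 are 18 members and 10 pathway genes (in all, 23 pathway genes were higher and 10 lower at this threshold), and their differences are given as the log2 fold change in SurvNESmut-GFP minus that in Surv-GFP. The members with a higher TMZ effect in SurvNESmut-GFP were GBP1 (1.64), OAS3 (0.56), DTX3L (0.74), IFIT2 (1.44), IFIT3 (0.89), PARP9 (0.76), IFI44 (0.81), OAS1 (1.36), XAF1 (1.48), IFIT1 (1.63), IRF1 (0.42), STAT2 (0.25), USP18 (0.66) and TLR3 (0.57). Those with a lower one were IRF7 (-0.91), ISG20 (-1.003), IRF9 (-0.42) and IFI35 (-0.43). Of the pathway genes picked in this way, the effect was higher in SurvNESmut-GFP for SOCS3 (1.67), TRIM14 (1.02), DNASE2 (0.53), RNF125 (0.61) and IFNAR2 (0.42). It was lower for IFI16 (-0.91), TRIM5 (-0.68), TRIM25 (-0.69), TICAM1 (-0.53) and IFNGR1 (-0.37). The difference of TICAM1 did not pass the test without untreated Surv-GFP replicate b, Surv-GFP TMZ replicate a or untreated SurvNESmut-GFP replicate a (adjusted p up to 0.10), and that of IFNGR1 without untreated Surv-GFP replicate a, Surv-GFP TMZ replicate b or replicate a of either SurvNESmut-GFP group (adjusted p up to 0.12). With 2 libraries per group, no group was large enough to look for a single outlying library. The letters a and b differed most in SurvNESmut-GFP TMZ, with a chi-square per degree of freedom of 5.75, against at most 2.66 in the other groups. Replicate a of that group also had the highest share of reads on no gene (14.3%), but 2 libraries cannot show which one departs. The fit over all 8 libraries gave this group no spread of its own.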

How the results depend on the processing

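Most results kept their direction and their side of the threshold. Over the alternatives that kept all libraries, 1336 of the member results were unchanged in call, 43 lost a call and 15 gained one, and no call changed sign. With 1 library left out, 1313 were unchanged, 106 lost a call and 21 gained one. The number of members that fell with TMZ in SurvNESmut-GFP was 7 and became 4 with library size alone (split 7 higher and 4 lower) and 4 with DESeq2, where 4 rose instead of 7. The number with a lower difference between the TMZ effects was 4 and became 2 with DESeq2. Over the settings other than leaving out a library, 16 to 23 members fell in Surv-GFP and 11 to 14 had a higher difference. Members higher in SurvNESmut-GFP under TMZ numbered 16 to 22 over these settings. The cause was not tested. With each library left out in turn, the members that rose in SurvNESmut-GFP numbered 4 to 7 and those that fell 4 to 7, the lower differences 2 to 4 (2 without untreated Surv-GFP replicate a) and the higher ones 11 to 16. In Surv-GFP, 2 to 3 rose and 16 to 22 fell. Untreated clone differences numbered 9 to 11 higher and 7 to 11 lower, and those under TMZ 16 to 20 higher and 5 to 8 lower. A group left with 1 library was assumed to vary like the others, although the letters differed more in SurvNESmut-GFP TMZ than elsewhere, as given above.

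The letters a and b showed no clear shared shift: deviations from the group means correlated at -0.067 to 0.083 between groups. Whether libraries of the same letter were handled together is not given in the labels, and these values cannot decide it. A replicate block on these letters gave 2 rising and 21 falling members in Surv-GFP, 7 and 7 in SurvNESmut-GFP, 13 higher and 4 lower differences, 10 and 11 untreated, and 19 and 7 under TMZ. Depth limits RSAD2, CXCL10, CXCL11 and IFI27, and OAS2 in SurvNESmut-GFP, so small changes with TMZ could be missed there. Where a group had no reads, a fall could not be seen.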
